A study of Mus musculus with 6 samples.

Results

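The genes described here are 38 of the 24984 genes counted in mouse embryonic stem cells: 22 genes of glucose transport and glycolysis, and 16 genes of the hypoxia response, most of them targets of the transcription factor HIF1. They were taken by symbol from a list, by a rule that uses no measured value. The list itself was drawn up with earlier results of these data known. RNA was measured in E14TG2a cells, an established mouse embryonic stem cell line, grown in the serum-free medium N2B27. The 6 libraries form 3 groups of 2: wild-type cells (WT), a METTL3 knockout line made with CRISPR/Cas9 (KO), and a line with the METTL3 D395A substitution, written into the gene with CRISPR/Cas9 and homology-mediated end joining (D395A). METTL3 is the methyltransferase that places N6-methyladenosine (m6A) on RNA, and D395A alters its catalytic motif. Each genotype is treated here as 1 line. The labels name no clones, do not say whether a genotype is a single clone, and do not tell separate cultures from repeat libraries of 1 culture. All p-values therefore measure the spread between these libraries, which may be technical, and a genotype cannot be told apart from the history of its line. The series was set up to study how m6A relates to circular RNA.

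Glycolysis splits glucose into pyruvate in the cytosol and yields ATP without oxygen. Glucose enters through transporters of the SLC2A family, is trapped by hexokinase, committed by phosphofructokinase, split by aldolase, and carried by later enzymes to pyruvate, which lactate dehydrogenase turns into lactate for export. Embryonic stem cells are known for high glycolytic activity even in oxygen. HIF1 consists of an oxygen-labile subunit, HIF1A, and the stable partner ARNT. With oxygen, EGLN prolyl hydroxylases mark HIF1A for destruction through VHL. Without it, HIF1 binds the core sequence ACGTG or GCGTG and activates genes of glycolysis, mitophagy, angiogenesis and collagen modification, and also EGLN genes in a feedback loop.

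HIF1 acts through short sequences near gene starts, so the 250 bases before each annotated start are shown for 7 members on which the results below turn. They include 6 members that fell in both mutant lines and Pfkm, which rose in both. The sequences are from RefSeq (GRCm38.p6), written 5′ to 3′ on the strand of the gene, and capitals mark every ACGTG or GCGTG on either strand (CACGT and CACGC where the match is on the other strand).
Pfkp (chr13:6648772-6649021, minus strand): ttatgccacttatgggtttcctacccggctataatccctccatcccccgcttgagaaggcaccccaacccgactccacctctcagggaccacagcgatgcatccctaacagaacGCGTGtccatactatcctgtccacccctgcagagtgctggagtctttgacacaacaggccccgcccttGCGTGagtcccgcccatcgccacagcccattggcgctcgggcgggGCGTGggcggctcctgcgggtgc
Pgk1 (chrX:106186850-106187099, plus strand): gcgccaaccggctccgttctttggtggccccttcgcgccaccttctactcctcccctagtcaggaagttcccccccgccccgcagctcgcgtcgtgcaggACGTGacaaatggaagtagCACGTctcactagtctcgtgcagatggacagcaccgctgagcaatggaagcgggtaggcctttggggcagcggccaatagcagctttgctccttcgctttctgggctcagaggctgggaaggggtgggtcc
Ldha (chr7:46845554-46845803, plus strand): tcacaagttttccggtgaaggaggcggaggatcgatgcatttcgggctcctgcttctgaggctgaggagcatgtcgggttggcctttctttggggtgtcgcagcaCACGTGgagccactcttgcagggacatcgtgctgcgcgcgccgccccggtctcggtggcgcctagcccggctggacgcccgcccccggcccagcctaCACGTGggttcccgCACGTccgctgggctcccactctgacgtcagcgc
Slc16a3 (chr11:120948817-120949066, plus strand): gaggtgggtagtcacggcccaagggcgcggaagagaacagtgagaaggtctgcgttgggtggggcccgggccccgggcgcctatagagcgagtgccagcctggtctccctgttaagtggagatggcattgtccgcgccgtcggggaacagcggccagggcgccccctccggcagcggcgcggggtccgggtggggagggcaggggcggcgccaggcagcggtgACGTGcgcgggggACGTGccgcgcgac
Bnip3 (chr7:138909507-138909756, minus strand): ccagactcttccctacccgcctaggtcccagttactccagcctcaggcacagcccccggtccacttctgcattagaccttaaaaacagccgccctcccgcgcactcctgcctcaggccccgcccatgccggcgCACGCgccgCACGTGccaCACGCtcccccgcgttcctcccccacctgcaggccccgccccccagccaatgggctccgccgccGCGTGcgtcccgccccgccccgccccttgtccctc
P4ha1 (chr10:59323046-59323295, plus strand): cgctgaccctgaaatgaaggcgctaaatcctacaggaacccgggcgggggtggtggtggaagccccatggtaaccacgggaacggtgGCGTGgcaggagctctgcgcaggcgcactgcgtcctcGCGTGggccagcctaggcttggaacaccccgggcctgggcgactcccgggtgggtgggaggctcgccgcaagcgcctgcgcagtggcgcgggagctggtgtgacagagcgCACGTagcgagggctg
Pfkm (chr15:98108221-98108470, plus strand): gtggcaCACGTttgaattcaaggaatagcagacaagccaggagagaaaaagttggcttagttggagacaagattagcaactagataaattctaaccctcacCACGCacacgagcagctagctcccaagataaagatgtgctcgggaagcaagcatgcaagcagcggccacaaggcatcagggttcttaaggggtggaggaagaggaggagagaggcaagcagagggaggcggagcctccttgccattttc

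In the window shown, the richer of its 2 on file, Ldha held 5 matches to ACGTG, and the other window held 1 GCGTG and 0 ACGTG. Of the 5 matches, 4 come from a pair of palindromic CACGTG boxes, the sequence bound by MYC and MAX, each of which counts on both strands. Bnip3 held 2 matches to ACGTG, from 1 such box, and 3 to GCGTG. Slc16a3 and Pgk1 held 2 ACGTG each, Pfkp 3 GCGTG, and P4ha1 1 ACGTG and 2 GCGTG. Pfkm, a gene that rose, held 1 of each before the start shown, which is 1 of its 4 starts on file. Another window of Pfkm held 2 matches to ACGTG, from 1 CACGTG box, a further one held 1 GCGTG, and the last held 0 matches. A start was on file for 34 of the 38 members, with no entry for Slc2a3, Bnip3l, Ndrg1 and Ndufa4l2. At least 1 ACGTG or GCGTG lay before at least 1 start of 18 of the 21 matched glycolysis genes (85.7%) and of 13 of the 13 matched hypoxia genes. The same held for 41.5% of all 27025 genes on file and 59.0% of the 12071 of them that passed the filter on low counts. Most of the hypoxia genes were listed as targets of HIF1, which binds these sequences, so their share depends on that choice. Counted by window, the shares were 78.8% of 33 for glycolysis, 77.3% of 22 for hypoxia, 38.6% of all 32851 and 53.5% of the 15241 windows of filtered genes. Genes with several starts have more windows, some windows of a gene overlap, and the median GC content was 60.4% and 65.4% in the windows of the glycolysis and hypoxia genes against 59.2% for filtered genes. The full CACGTG box was found in 9.1% and 13.6% of the member windows, against 8.2% for filtered genes. Eno2, Gpi1 and Tpi1 had no match in this window, and Gpi1 and Tpi1 fell in both mutant lines.

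Gene counts per library ran from 22859491 (D395A replicate 1) to 40476809 (WT replicate 1). Replicates of each group differed beyond counting error, with chi-square over its degrees of freedom at 3.18 (WT), 6.48 (KO) and 11.1 (D395A). CPM is the count of a gene relative to its library total after trimmed-mean (TMM) scaling, and changes are given as log2 fold changes ± SE from edgeR with p-values adjusted over all 15663 genes tested. Mettl3, the targeted gene, stood at 28.5 and 31.6 CPM in the WT libraries, 7.82 and 6.17 CPM in the KO libraries, and 21.1 and 23.4 CPM in the D395A libraries. The summed level of 10 embryonic stem cell markers was 4845 to 4853 CPM in the WT libraries, 5896 to 5991 CPM in the KO libraries and 2588 to 2760 CPM in the D395A libraries, and 9 of the 10 were called lower in D395A. Sums over 10 markers each were 11.1 to 11.5, 6.74 to 7.78 and 29.3 to 30.0 CPM for extraembryonic endoderm in WT, KO and D395A. For trophoblast they were 74.3 to 74.4, 67.5 to 68.8 and 86.1 to 91.8 CPM, for fibroblasts 28.9, 27.4 to 28.0 and 14.7 to 17.2 CPM, and for neural cells 92.2 to 99.1, 60.5 to 61.0 and 69.0 to 69.8 CPM. In D395A 2 of 6 tested markers of endoderm, 5 of 8 of trophoblast, 4 of 7 of fibroblasts and 5 of 8 of neural cells were called higher, and 2, 1, 3 and 3 of them lower. In KO 2, 2, 2 and 0 were called higher and 2, 1, 2 and 3 lower. Over all genes 36.3% were called higher and 34.0% lower in D395A, and 33.6% and 32.6% in KO. Most of the endoderm sum in D395A was Foxa2 (mean 21.3 CPM, against 0.106 CPM in WT). Cubn was also called higher in D395A (3.52 ± 0.54), and Gata4 and Gata6 were called lower (-2.05 ± 0.25 and -1.15 ± 0.36). Tpbpa, Col3a1, Twist2, Dcn, Lum, Neurog2 and Dcx were at 0 counts in both WT libraries, Ttr, Tpbpa, Col3a1, Postn and Lum in both KO libraries, and Afp, Ttr, Elf5 and Tpbpa in both D395A libraries. The part of these markers in the results below was not tested, and in bulk RNA fewer cells of a type and less RNA per cell cannot be told apart. Median log2 fold changes were -0.48 on chromosome 8 and -0.42 on chromosome 11 in KO, and -0.35 and -0.49 in D395A, against -0.12 to 0.17 and -0.04 to 0.28 on the other autosomes and X.

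Most genes of both groups were lower in both mutant lines. All 38 members passed the filter on low counts. In KO against WT, 18 of 22 glycolysis genes fell, 2 rose and 2 did not pass the test, and 14 of 16 hypoxia genes fell, 0 rose and 2 did not pass. Over all genes tested, 66.2% were called, 32.6% lower and 33.6% higher. In D395A against WT, 18 glycolysis genes fell, 2 rose and 2 did not pass, and 13 hypoxia genes fell, 0 rose and 3 did not pass, where 70.3% of all genes were called, 34.0% lower and 36.3% higher. Falls of at least 2-fold were called for 12 glycolysis and 11 hypoxia genes in KO (10.6% of all genes) and for 8 and 8 in D395A (12.0% of all genes). No member was called at least 2-fold higher against WT, as 13.7% of all genes were in KO and 17.0% in D395A. The median log2 fold change was -1.16 for glycolysis and -1.18 for hypoxia in KO, and -0.78 and -0.91 in D395A, while the median of all genes was 0.01 and 0.02. Both comparisons use the same WT libraries. Summed over the 22 glycolysis genes, the level was 16770 and 16970 CPM in the WT libraries, 8136 and 8615 CPM in the KO libraries, and 10410 and 11140 CPM in the D395A libraries. The 16 hypoxia genes summed to 1438 and 1457 CPM in the WT libraries, 725 and 737 CPM in the KO libraries, and 718 and 755 CPM in the D395A libraries. The glycolysis sum was thus lower in KO than in D395A, while the ranges of the hypoxia sum overlapped between the mutant lines. That overlap rests on Ak4, the hypoxia gene with the highest level in WT. Its change in D395A against KO was -1.87 ± 0.07. In that comparison 8 of the 16 hypoxia genes were called higher and 2 lower, Ak4 among the latter. Without the 5 members on chromosomes 8 and 11, the KO medians came to -1.01 (glycolysis) and -1.11 (hypoxia) and the D395A medians to -0.70 and -1.06, with 16 of 20 glycolysis and 11 of 13 hypoxia genes lower in each line.

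**Figure D1:**
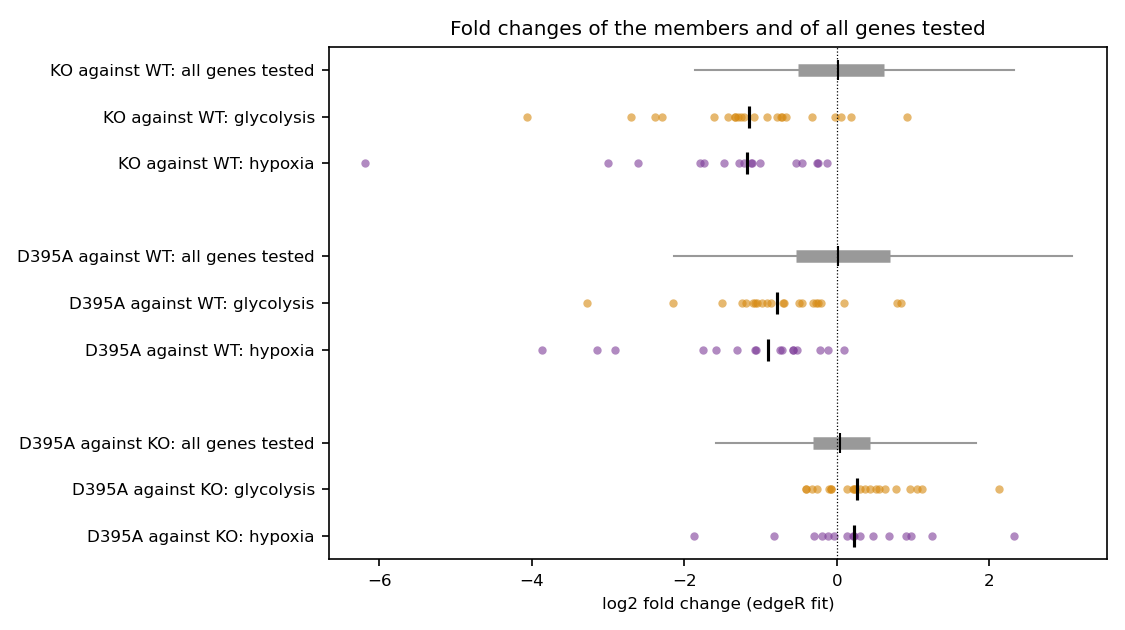
Log2 fold changes of the 22 glycolysis genes (orange) and the 16 hypoxia genes (purple) in each comparison, 1 point per gene with the median as a black tick, above which the grey bar spans the middle 50% and the thin line the 5th to 95th percentile of all genes tested. In both comparisons with WT the medians of the members (-1.16 and -1.18 in KO, -0.78 and -0.91 in D395A) lie to the left of the bar of all genes.

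The 2 glucose transporters differed between the mutant lines. Slc2a1 (GLUT1, the basal transporter of most cells; ENSMUSG00000028645, chromosome 4, GRCm38 119108711 to 119137983, plus strand) stood at 466 and 495 CPM in the WT libraries, 90.4 and 93.9 CPM in the KO libraries, and 384 and 423 CPM in the D395A libraries. The KO libraries lay far below the others, and the D395A libraries stayed just below WT. It fell by 2.38 ± 0.07 in KO (adjusted p = 9.4e-11), a 5.21-fold drop. In D395A the value was -0.25 ± 0.07 (adjusted p = 0.0062), a call that ended without WT replicate 2 (-0.21, adjusted p = 0.10). Slc2a3 (GLUT3, a high-affinity transporter) showed the other order, with 1904 and 1902 CPM in the WT libraries, 1180 and 1212 CPM in the KO libraries, and 843 and 966 CPM in the D395A libraries. It fell by 0.67 ± 0.07 in KO (adjusted p = 4.2e-06) and by 1.07 ± 0.07 in D395A (adjusted p = 5.3e-08), and no library of 1 group overlapped another group.

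Hexokinases trap glucose as its phosphate. Hk2, the form induced by HIF1, stood at 683 and 702 CPM in the WT libraries, 265 and 286 CPM in the KO libraries, and 397 and 456 CPM in the D395A libraries. The groups did not overlap, and Hk2 fell by 1.33 ± 0.08 in KO (adjusted p = 1.5e-08) and 0.70 ± 0.08 in D395A (adjusted p = 4.2e-06). Hk1, the housekeeping form, held 179 and 180 CPM in the WT libraries, 206 and 204 CPM in the KO libraries, and 147 and 163 CPM in the D395A libraries. These were small shifts in opposite directions, 0.19 ± 0.07 in KO (adjusted p = 0.023) and -0.21 ± 0.07 in D395A (adjusted p = 0.013). The KO call ended when any single WT or KO library was left out (adjusted p = 0.065 to 0.14), so that 1 instead of 2 glycolysis genes were called higher, and the D395A call ended without either WT library (adjusted p = 0.075 and 0.093). Gpi1, which isomerises glucose phosphate, fell by 0.72 ± 0.07 in KO and 0.50 ± 0.07 in D395A, and Gm26762 on the opposite strand covers 11.48% of its exon bases.

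Phosphofructokinase, the committed step, changed in the make-up of its subunits. Pfkp, the platelet-type subunit, had 307 and 333 CPM in the WT libraries, 50.3 and 48.2 CPM in the KO libraries, and 68.0 and 76.1 CPM in the D395A libraries. It fell 6.50-fold in KO (-2.70 ± 0.08, adjusted p = 4.3e-11) and 4.43-fold in D395A (-2.15 ± 0.07, adjusted p = 1.2e-10). Pfkl, the liver-type subunit, went from 125 and 138 CPM in the WT libraries to 54.1 and 58.7 CPM in the KO libraries and 64.3 and 68.5 CPM in the D395A libraries. Its changes were -1.22 ± 0.07 and -0.98 ± 0.07 (adjusted p = 1.5e-08 and 8.6e-08). Pfkm, the muscle-type subunit, was the member that rose in both lines. It stood at 24.7 and 25.1 CPM in the WT libraries, 45.8 and 48.1 CPM in the KO libraries, and 43.4 and 45.5 CPM in the D395A libraries, rising by 0.92 ± 0.07 (adjusted p = 1.1e-07) and 0.84 ± 0.07 (adjusted p = 2.5e-07). The mutant libraries all lay above WT, and KO and D395A did not differ past the test (-0.08 ± 0.07, adjusted p = 0.35). Exons of another gene on the same strand, Gm26513, cover 10.21% of the exon bases of Pfkm. Pfkfb3, which makes the bisphosphate that activates phosphofructokinase, fell from 36.9 and 38.2 CPM in the WT libraries to 18.7 and 16.5 CPM in the KO libraries and 16.4 and 16.4 CPM in the D395A libraries (-1.09 ± 0.08 and -1.19 ± 0.08, adjusted p = 9.4e-08 and 4.8e-08). Its paralogue Pfkfb4 was low, at 2.90 to 4.24 CPM in all libraries, and passed in neither comparison (0.05 ± 0.18 and -0.27 ± 0.19).

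Aldolases split the sugar bisphosphate. Aldoa, the form of most tissues, stood at 1770 and 1870 CPM in the WT libraries, 729 and 757 CPM in the KO libraries, and 903 and 1017 CPM in the D395A libraries. It fell by 1.29 ± 0.07 in KO (adjusted p = 1.2e-08) and 0.92 ± 0.07 in D395A (adjusted p = 2e-07). Aldoc, known from brain, was some way lower in level but fell further, from 59.5 and 61.4 CPM to 12.3 and 12.4 CPM in the KO libraries and 25.2 and 25.8 CPM in the D395A libraries. Its changes were -2.29 ± 0.07 and -1.24 ± 0.07 (adjusted p = 8.9e-11 and 5.6e-09). Aldoc lies on chromosome 11, and set against the median of that chromosome its changes were -1.87 in KO and -0.75 in D395A. Tpi1, which interconverts the products of aldolase, fell by 0.78 ± 0.06 in KO and 0.86 ± 0.06 in D395A.

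The enzymes that lead from triose phosphate to pyruvate fell at every step in at least 1 isoenzyme. Gapdh, the dehydrogenase often used as a reference gene, stood at 4950 and 4896 CPM in the WT libraries, 2848 and 3081 CPM in the KO libraries, and 3921 and 4046 CPM in the D395A libraries. The groups did not overlap, and the changes were -0.73 ± 0.06 in KO (adjusted p = 5.9e-07) and -0.31 ± 0.06 in D395A (adjusted p = 0.00098). Pgk1, which makes the first ATP of the pathway, fell from 447 and 473 CPM to 147 and 154 CPM in the KO libraries (-1.61 ± 0.07, adjusted p = 6.7e-10) and 210 and 218 CPM in the D395A libraries (-1.10 ± 0.07, adjusted p = 1.3e-08). Pgam1, a mutase, fell by 0.92 ± 0.06 and 0.69 ± 0.06. Eno1, the ubiquitous enolase, had 1266 and 1217 CPM in the WT libraries, 442 and 482 CPM in the KO libraries, and 847 and 953 CPM in the D395A libraries. It fell by 1.43 ± 0.08 in KO (adjusted p = 7.1e-09) and by 0.46 ± 0.08 in D395A (adjusted p = 0.00013). Eno1b, a near-identical copy of Eno1, was counted separately at 146 and 152 CPM in the WT libraries, 60.1 and 66.3 CPM in the KO libraries, and 115 and 119 CPM in the D395A libraries, so the split of reads between these rows is uncertain. Eno2, the neuronal enolase, stood at 3.79 to 4.30 CPM in all 6 libraries and did not pass (adjusted p = 0.91 in KO and 0.60 in D395A). Pkm, pyruvate kinase, went from 2362 and 2399 CPM to 909 and 969 CPM in the KO libraries and 1108 and 1202 CPM in the D395A libraries. Its changes were -1.34 ± 0.07 (adjusted p = 4.7e-09) and -1.04 ± 0.07 (adjusted p = 3.5e-08), and counts per gene do not tell its splice forms apart. Exons of Gm49759 on the same strand cover 15.34% of its exon bases. Gapdh, Pgk1, Pgam1, Tpi1, Aldoa and Ldha also have processed copies in the mouse genome, and the tables list reads that aligned to several places apart from the genes.

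Lactate production and export held the largest fall of the pathway. Ldha, which favours making lactate, stood at 504 and 528 CPM in the WT libraries, 215 and 218 CPM in the KO libraries, and 178 and 183 CPM in the D395A libraries. It fell in both lines, by 1.25 ± 0.06 (adjusted p = 4.2e-09) and 1.51 ± 0.06 (adjusted p = 7.2e-10). Ldhb, which favours turning lactate back into pyruvate, had 256 and 245 CPM in the WT libraries, 198 and 201 CPM in the KO libraries, and 437 and 427 CPM in the D395A libraries. It moved in opposite directions, with -0.33 ± 0.06 in KO (adjusted p = 5e-04) and 0.79 ± 0.06 in D395A (adjusted p = 2.1e-07). Slc16a3 (MCT4, the lactate exporter induced by HIF1) fell from 178 and 202 CPM to 12.5 and 10.3 CPM in the KO libraries and 16.2 and 22.4 CPM in the D395A libraries. That is 16.6-fold (-4.06 ± 0.13, adjusted p = 1.1e-10) and 9.68-fold (-3.27 ± 0.12, adjusted p = 2.5e-10), and no mutant library came near WT. Slc16a3 lies on chromosome 11, and relative to the median of that chromosome the changes were -3.64 and -2.78.

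**Figure D2:**
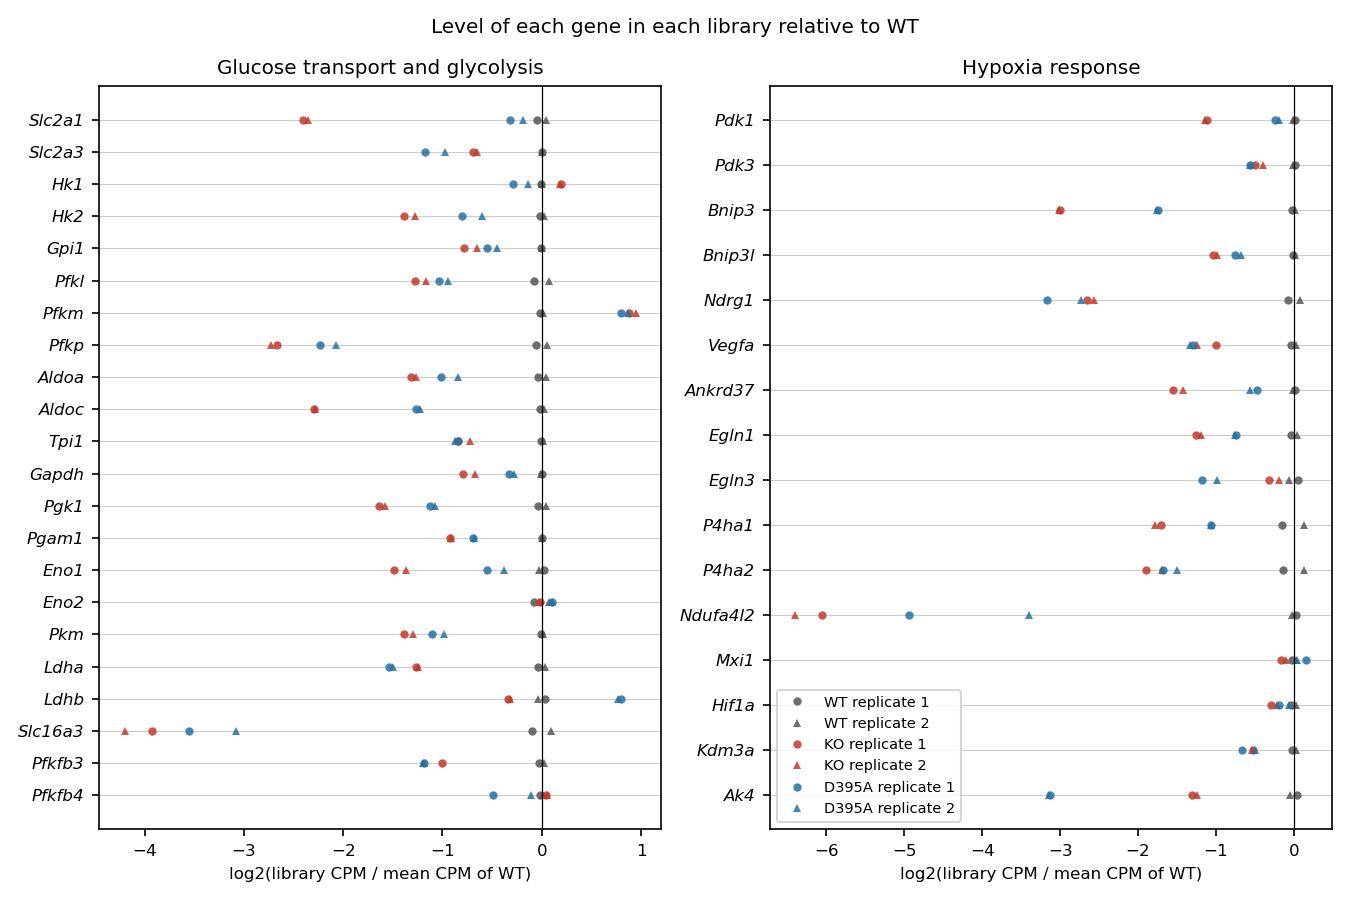
Level of each member in each library as log2 of its CPM over the mean CPM of WT, with circles for replicate 1 and triangles for replicate 2 of WT (grey), KO (red) and D395A (blue). KO and D395A libraries lie left of WT for most genes, while Pfkm in both lines and Ldhb in D395A lie to the right.

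Because paralogues moved unequally, their shares within a step shifted. Shares were taken from CPM per kilobase of annotated exon, among the members only, by library and with no test. Slc2a1 made up 33.6% and 35.0% of the transporter pair in WT, 13.7% and 13.8% in the KO libraries, and 48.5% and 47.5% in the D395A libraries. The share of Hk1 among the hexokinases was 15.5% and 15.2% in the WT libraries, 35.2% and 33.3% in the KO libraries, and 20.6% and 20.0% in the D395A libraries. Pfkm held 15.1% and 14.2% of phosphofructokinase RNA in WT, 53.6% and 53.7% in the KO libraries, and 46.9% and 46.1% in the D395A libraries, and Pfkp went from 46.8% and 46.8% to 14.7% and 13.4% in the KO libraries and 18.3% and 19.2% in the D395A libraries. Ldha fell from 48.2% and 50.6% of lactate dehydrogenase RNA in WT to 34.0% and 34.0% in the KO libraries and 16.2% and 16.9% in the D395A libraries. In all of these the replicates lay within 3 percentage points of each other, closer than the groups did. The sizes depend on the gene length used. With the longest coding transcript the share of Pfkm was 7.37% and 6.93% in the WT libraries, 37.4% and 37.9% in the KO libraries, and 30.9% and 30.1% in the D395A libraries, below that of Pfkl (35.4% and 35.0%) in D395A. On that length the share of Hk1 in KO replicate 2 was 47.9%, near that of Hk2 (52.1%).

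**Figure D3:**
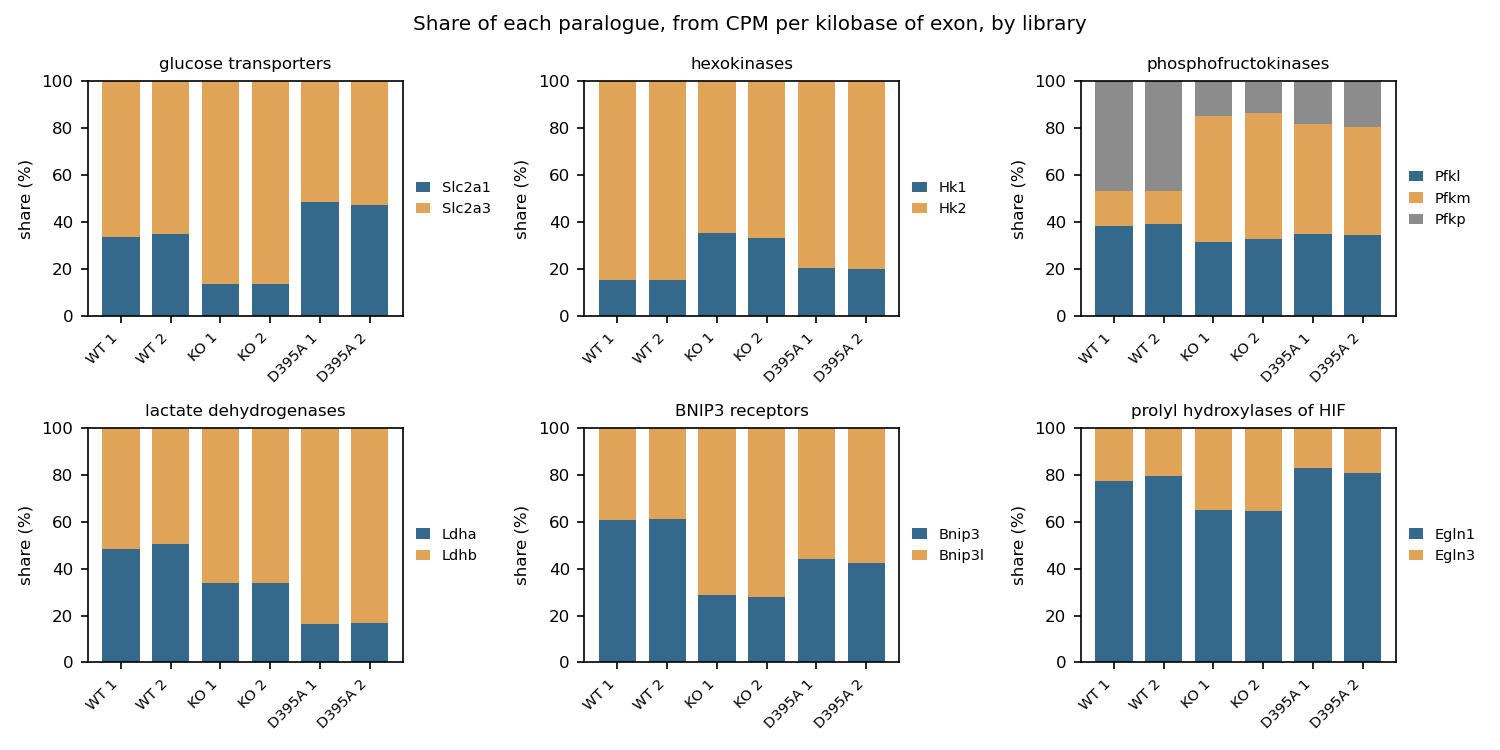
Share (%) of each paralogue in 6 gene families, from CPM per kilobase of exon, as stacked bars for the 6 libraries. Shares count members only. The panel of HIF prolyl hydroxylases thus leaves out Egln2, at 14.8 CPM per kilobase in KO and 15.3 in D395A, against 8.30 and 11.5 for Egln1. Replicates look alike, and the share of Slc2a1 is lowest in KO (13.7% and 13.8%), that of Ldha lowest in D395A (16.2% and 16.9%), and Pfkm is larger in both mutant lines than in WT.

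Among the hypoxia genes, Hif1a itself shifted little, and the hydroxylases Egln1 and Egln3 were lower in D395A. Hif1a, the oxygen-labile subunit, stood at 155 and 162 CPM in the WT libraries, 130 and 136 CPM in the KO libraries, and 139 and 153 CPM in the D395A libraries. It fell by 0.26 ± 0.07 in KO (adjusted p = 0.0048), a call that ended without WT replicate 2 (adjusted p = 0.076). In D395A it did not pass (-0.12 ± 0.07, adjusted p = 0.12), but passed without D395A replicate 2 (-0.20, adjusted p = 0.016). RNA levels say nothing of the protein, whose stability is the regulated step. Egln1, the main hydroxylase of HIF1A, had 67.7 and 71.7 CPM in the WT libraries, 29.1 and 30.5 CPM in the KO libraries, and 41.5 and 41.4 CPM in the D395A libraries. It fell by 1.22 ± 0.07 and 0.75 ± 0.06 (adjusted p = 6.4e-09 and 4.3e-07), or -0.74 and -0.40 relative to the median of chromosome 8, where it lies. Egln3, an inducible hydroxylase, was at 14.9 and 13.7 CPM in the WT libraries, 11.5 and 12.5 CPM in the KO libraries, and 6.30 and 7.21 CPM in the D395A libraries. It fell by 1.07 ± 0.11 in D395A (adjusted p = 2.9e-06). In KO it stood at the threshold (-0.25 ± 0.11, adjusted p = 0.051), with adjusted p from 0.041 to 0.25 under the alternatives, 6 of which called it.

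The largest fall of all 38 members in both lines was that of a metabolic target. Ndufa4l2, a mitochondrial protein that dampens respiratory complex I in hypoxia (chromosome 10, GRCm38 127514967 to 127517154, plus strand), had 17.3 and 16.8 CPM in the WT libraries, 0.256 and 0.202 CPM in the KO libraries, and 0.554 and 1.61 CPM in the D395A libraries. These KO values rest on 9 and 7 counts, and those of D395A on 13 and 58 counts. It fell 73.2-fold in KO (-6.19 ± 0.32, adjusted p = 5.3e-09) and 14.6-fold in D395A (-3.87 ± 0.26, adjusted p = 3.7e-08). The D395A value was -3.40 without D395A replicate 1 and -4.93 without D395A replicate 2. Exons of Shmt2 on the opposite strand cover 2.92% of its exon bases. Ak4, a mitochondrial adenylate kinase, went from 337 and 315 CPM to 131 and 138 CPM in the KO libraries (-1.28 ± 0.06, adjusted p = 3.7e-09) and to 37.1 and 36.8 CPM in the D395A libraries (-3.14 ± 0.07, adjusted p = 5.6e-12). Here D395A lay well below KO. Pdk1, a pyruvate dehydrogenase kinase, stood at 146 and 143 CPM in the WT libraries, 66.6 and 65.3 CPM in the KO libraries, and 122 and 126 CPM in the D395A libraries. It fell by 1.13 ± 0.06 in KO (adjusted p = 6e-09), and its change in D395A of -0.22 ± 0.06 (adjusted p = 0.0049) was not called without WT replicate 1 (adjusted p = 0.054). Pdk3, a related kinase, fell by 0.45 ± 0.06 and 0.57 ± 0.06.

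The mitophagy receptors followed the same direction. Bnip3 (ENSMUSG00000078566, chromosome 7, GRCm38 138890836 to 138909519, minus strand), whose upstream sequence is shown above, stood at 91.5 and 94.0 CPM in the WT libraries, 11.6 and 11.5 CPM in the KO libraries, and 27.7 and 27.4 CPM in the D395A libraries. It fell 8.03-fold (-3.00 ± 0.07, adjusted p = 1.1e-11) and 3.37-fold (-1.75 ± 0.06, adjusted p = 1.8e-10), and each group was narrow and apart from the others. Exons of Gm45507 on the opposite strand cover 22.25% of its exon bases. Bnip3l (NIX), its paralogue, had 100 and 102 CPM in the WT libraries, 49.2 and 51.0 CPM in the KO libraries, and 59.8 and 63.0 CPM in the D395A libraries, and fell by 1.01 ± 0.06 and 0.72 ± 0.06 (adjusted p = 1.9e-08 and 3.8e-07). The share of Bnip3 in this pair, per kilobase of exon, was 60.9% and 61.1% in the WT libraries, 28.6% and 27.8% in the KO libraries, and 44.1% and 42.5% in the D395A libraries.

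Of the 7 hypoxia genes not yet described, 6 fell in KO and 5 in D395A. Ndrg1, a stress-response gene strongly induced by hypoxia, went from 53.0 and 59.1 CPM in the WT libraries to 8.90 and 9.45 CPM in the KO libraries and 6.22 and 8.43 CPM in the D395A libraries (-2.61 ± 0.11 and -2.91 ± 0.11, adjusted p = 7.6e-10 and 3.7e-10). Vegfa, the angiogenic growth factor, had 106 and 111 CPM in the WT libraries, 54.3 and 45.7 CPM in the KO libraries, and 44.2 and 42.8 CPM in the D395A libraries (-1.11 ± 0.08 and -1.31 ± 0.08, adjusted p = 6.7e-08 and 1.6e-08). In both genes all mutant libraries lay below WT. The collagen prolyl hydroxylase subunits P4ha1 and P4ha2 fell in both lines. P4ha1 stood at 41.3 and 50.3 CPM in the WT libraries, 14.1 and 13.3 CPM in the KO libraries, and 21.9 and 22.0 CPM in the D395A libraries (-1.74 ± 0.10 and -1.06 ± 0.09, adjusted p = 9e-09 and 5.2e-07). P4ha2, on chromosome 11, had 12.4 and 14.9 CPM in the WT libraries, 3.67 and 4.24 CPM in the KO libraries, and 4.26 and 4.83 CPM in the D395A libraries (-1.79 ± 0.14 and -1.58 ± 0.14, adjusted p = 2.4e-07 and 6.9e-07). Relative to the median of that chromosome its changes were -1.37 and -1.09. Ankrd37, a small ankyrin-repeat protein and HIF1 target on chromosome 8, was low, with 2.26 and 2.23 CPM in the WT libraries, 0.768 and 0.836 CPM in the KO libraries, and 1.62 and 1.53 CPM in the D395A libraries. It fell in KO (-1.48 ± 0.33, adjusted p = 0.0016) and did not pass in D395A (-0.52 ± 0.32, adjusted p = 0.16), and exons of Lrp2bp and Ufsp2 on the opposite strand cover 26.38% of its exon bases. Kdm3a, a histone demethylase induced by hypoxia, fell by 0.53 ± 0.07 and 0.58 ± 0.07. Mxi1, an antagonist of MYC, was at 29.2 to 36.6 CPM in all libraries and passed in neither line (adjusted p = 0.12 and 0.25).

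D395A against KO compares the mutant lines with each other and is the test of any difference between them. Of the 22 glycolysis genes 14 were higher in D395A, 3 lower and 5 did not pass, and of the 16 hypoxia genes 8 were higher, 2 lower and 6 did not pass. Over all genes 50.4% were called, 26.5% higher and 23.8% lower. The medians were 0.27 for glycolysis and 0.22 for hypoxia, against 0.04 for all genes. Differences of at least 2-fold were called for Slc2a1 (2.13 ± 0.07, adjusted p = 3e-10), Ldhb (1.12 ± 0.06, adjusted p = 2.1e-08) and Aldoc (1.05 ± 0.08, adjusted p = 1.7e-07). Among hypoxia genes they were called for Ndufa4l2 (2.33 ± 0.46, adjusted p = 0.0011) and Bnip3 (1.25 ± 0.07, adjusted p = 2.8e-08), and downward for Ak4 (-1.87 ± 0.07, adjusted p = 5.5e-10). All genes called at least 2-fold made up 8.38% (higher) and 7.56% (lower). The glycolysis genes lower in D395A were Slc2a3 (-0.40 ± 0.07), Hk1 (-0.40 ± 0.07) and Ldha (-0.26 ± 0.06), and Egln3 (-0.82 ± 0.12) was the other hypoxia gene besides Ak4. The value of Ndufa4l2 rests on D395A replicate 2 and was 1.26 without it (adjusted p = 0.051). Without KO replicate 1 the calls of Gpi1, Pfkl and Pgam1 ended (adjusted p = 0.22, 0.15 and 0.052). The call of Ankrd37 (0.97 ± 0.34, adjusted p = 0.031) ended without any 1 of the 6 libraries (adjusted p = 0.055 to 0.10). That of Mxi1 (0.23 ± 0.07, adjusted p = 0.020) ended without KO replicate 1 (adjusted p = 0.13) or D395A replicate 1 (adjusted p = 0.11), and Gpi1 also lost its call without either WT library (adjusted p = 0.076 and 0.077). Vegfa (-0.20 ± 0.08, adjusted p = 0.055) passed without KO replicate 2 (-0.33, adjusted p = 0.0049), and Hif1a (0.13 ± 0.07, adjusted p = 0.12) without D395A replicate 1 (0.20, adjusted p = 0.017). Without D395A replicate 2 the call of Pfkl ended (adjusted p = 0.10) and that of Ndrg1 began (-0.56, adjusted p = 0.010, against -0.30 ± 0.13 with all libraries, adjusted p = 0.079).

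**Figure D4:**
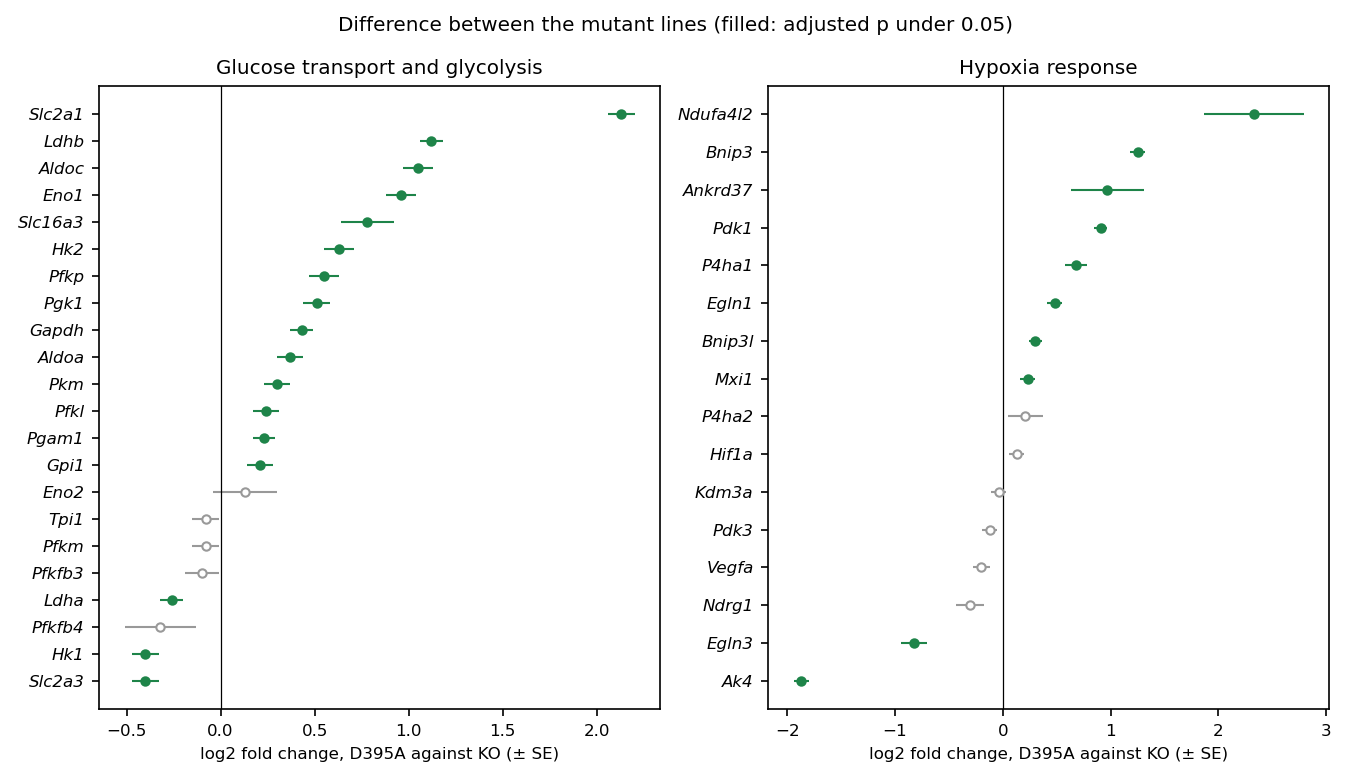
Log2 fold change of D395A against KO (± SE of the fit) for each member, sorted by value, with filled points where the adjusted p was under 0.05. Slc2a1 (2.13) and Ndufa4l2 (2.33) lie farthest to the right and Ak4 (-1.87) farthest to the left.

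Other genes of the pathway were taken from separate lists, which were also drawn up with earlier results of these data known. Of 33 tested HIF targets that are not members, 23 fell and 4 rose in KO, and 24 fell and 3 rose in D395A, with medians of -0.73 and -0.56. Of all genes 32.6% fell and 33.6% rose in KO, and 34.0% fell and 36.3% rose in D395A. Stc2, a secreted stress glycoprotein, went from 21.8 and 24.6 CPM in the WT libraries to 1.37 and 1.61 CPM in the KO libraries and 7.79 and 7.29 CPM in the D395A libraries (-3.96 ± 0.14 and -1.62 ± 0.11). Loxl2, a lysyl oxidase, fell by 3.23 ± 0.23 and 2.05 ± 0.21, and Pnrc1, a nuclear receptor coactivator, by 1.60 ± 0.07 in KO. Plod1, Vhl, Arnt, Egln2, Elob and Siah2 are named beyond the rule for names, after their values were seen. Plod1, a lysyl hydroxylase of collagen, went against the list, from 23.0 and 24.8 CPM to 62.9 and 64.5 CPM in the KO libraries and 34.7 and 37.6 CPM in the D395A libraries. Of 14 regulators of the HIF pathway, 4 rose and 2 fell in KO, and 6 rose and 5 fell in D395A, with medians of 0.05 and 0.03, where the D395A counts are near the shares of all genes (36.3% and 34.0%) and the KO counts are below them (33.6% and 32.6%). Cited2, a HIF target whose protein competes with HIF1A for its coactivators, stood at 24.7 and 26.0 CPM in the WT libraries, 90.9 and 96.3 CPM in the KO libraries, and 142 and 142 CPM in the D395A libraries. It rose by 1.89 ± 0.07 (adjusted p = 2.1e-10) and 2.49 ± 0.07 (adjusted p = 1.6e-11), the opposite direction to most targets listed. Vhl, the ubiquitin ligase subunit that binds hydroxylated HIF1A, was at 35.3 and 34.5 CPM in the WT libraries, 36.8 and 38.5 CPM in the KO libraries (adjusted p = 0.17), and 23.8 and 23.3 CPM in the D395A libraries, where it fell by 0.57 (adjusted p = 1.1e-05). Arnt, the stable partner of HIF1A, had 124 to 136 CPM in the WT libraries and KO libraries (adjusted p = 0.42) and 101 and 116 CPM in the D395A libraries (-0.22, adjusted p = 0.017). Other regulators went the other way. Egln2 (values above), Elob (0.83 ± 0.06 and 0.75 ± 0.06) and Siah2 (0.22 ± 0.07 and 0.73 ± 0.07) were called higher in KO and D395A. Hif3a was called lower in KO (-0.74 ± 0.10) and higher in D395A (0.81 ± 0.09), and differed between the lines by 1.55 ± 0.09.

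Glycolytic isoenzymes of other tissues and opposing enzymes formed another list. Of 24 tested, 9 rose and 3 fell in KO, and 6 rose and 12 fell in D395A, with medians of 0.27 and -0.33. Of all genes 33.6% rose and 32.6% fell in KO, and 36.3% rose and 34.0% fell in D395A, so the count that rose in KO is near the share of all genes. Tigar, a phosphatase that lowers the bisphosphate made by PFKFB enzymes, had 85.3 and 83.8 CPM in the WT libraries, 210 and 219 CPM in the KO libraries, and 57.5 and 70.3 CPM in the D395A libraries. It rose by 1.34 ± 0.08 in KO (adjusted p = 2e-08), was called lower in D395A (-0.40, adjusted p = 0.00097), and differed between the lines by -1.74 ± 0.08. Eno3, the muscle enolase, rose by 1.05 ± 0.11 in D395A, and Ldhc, the testis lactate dehydrogenase, fell from 4.38 and 5.82 CPM to 0.853 and 1.01 CPM in the KO libraries and 1.28 and 0.638 CPM in the D395A libraries.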

How the data were processed

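Ribosomal RNA was removed and directional libraries were made, per the labels' protocols. The authors deposited 1 table of raw gene counts per library, made with Trimmomatic 0.36, STAR 2.7 and HTSeq 0.11.2 on mm10, per the submitters' processing notes. No strand setting or gene annotation is named in the sources, so counts of overlapping genes are uncertain. The summary lines of HTSeq (29.048% to 44.23% of each table) were left out. Counts were analysed with edgeR 4.0.16 in R 4.3.3: filterByExpr (15663 genes kept), TMM, and the quasi-likelihood F test with all 6 libraries in 1 fit, 3 residual degrees of freedom, and Benjamini-Hochberg adjustment over all genes (threshold 0.05). The fit was tested on simulated data. DESeq2 1.42.0, other filters and scalings, a replicate block and leaving out each library were the alternatives. GENCODE M21 (GRCm38) supplied positions and lengths for 97.93% of the symbols. The members and lists were chosen with earlier results of these data known. By the rule for names, members called with at least a 2-fold change, those called higher and 13 fixed genes are given by library, and at most 6 called genes of every other list may be named.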

Additional observations from a re-analysis of the deposited data

Results flagged for a closer look

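The change against WT differed between the mutant lines, by the test of D395A against KO, for 27 of the 38 members. The values below are log2 changes in D395A minus those in KO. Among genes with the higher value in D395A they were 2.13 for Slc2a1, 0.63 for Hk2, 0.21 for Gpi1, 0.24 for Pfkl, 0.55 for Pfkp, 0.37 for Aldoa, 1.05 for Aldoc, 0.43 for Gapdh, 0.51 for Pgk1, 0.23 for Pgam1 and 0.96 for Eno1. They were also 0.30 for Pkm, 1.12 for Ldhb, 0.78 for Slc16a3, 0.91 for Pdk1, 1.25 for Bnip3, 0.30 for Bnip3l, 0.97 for Ankrd37, 0.48 for Egln1, 0.68 for P4ha1, 2.33 for Ndufa4l2 and 0.23 for Mxi1. The lower values in D395A were -0.40 for Slc2a3, -0.40 for Hk1, -0.26 for Ldha, -0.82 for Egln3 and -1.87 for Ak4. Over all genes tested 50.4% passed this test, 26.5% higher and 23.8% lower in D395A. The members passed more often than that, but they were chosen with earlier results of these data known, and this excess was not tested. Slc2a1 had the largest difference among glycolysis genes, while Ldhb, Aldoc and Eno1 lay close to each other. Ldhb and Hk1 were called in opposite directions against WT in the 2 lines. The calls of Gpi1, Pfkl, Pgam1, Ankrd37, Mxi1 and Ndufa4l2 ended under at least 1 alternative. No group had enough libraries for a check of single outlying libraries.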

How the results depend on the processing

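The 13 alternatives, 6 of which leave out 1 library each, gave 1482 values for the 114 changes of members, and 1437 kept their direction and their side of the threshold. A call was lost in 30 cases and gained in 15, and 0 reversed, all within 16 of the 114 changes. The number of glycolysis genes called higher in KO was 2 with all libraries and ranged from 1 to 2 when a library was left out. Hypoxia genes called lower in D395A against KO numbered 4 without a filter on low counts and 2 with it, as Vegfa and Ndrg1 passed there. All other counts of members called stayed within 1.5 times of those reported. Replicate numbers did not pair the libraries: deviations of same-numbered libraries correlated by 0.01 for WT with KO, 0.01 for WT with D395A and -0.21 for KO with D395A. With the replicate block, 10220 genes were called in KO against WT, 10843 in D395A against WT and 7832 in D395A against KO, against 10368, 11011 and 7889 without it. The block ended the call of Ankrd37 in D395A against KO (0.97, adjusted p = 0.053) and gave one to Ndrg1 (-0.31, adjusted p = 0.030), and it changed no other call of a member. Crossing the numbers of KO and D395A, an alternative chosen after seeing the data and fitted on those 4 libraries, gave 7146 calls against 7392 uncrossed. Depth limits Ndufa4l2 and Ankrd37, which rest on 7 to 58 and 27 to 55 counts in the mutant libraries, and counting error is covered only within the fit.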

Other observations

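Pathways that branch from or follow glycolysis are given here by their counts. Of all genes 33.6% rose and 32.6% fell in KO, and 36.3% rose and 34.0% fell in D395A. Tkt and Mpc2 are named here after their values were seen. Of 10 genes of the pentose phosphate pathway, 3 rose and 4 fell in KO, and 3 rose and 5 fell in D395A, with medians of 0.03 and -0.19. Pgd, the second dehydrogenase of its NADPH-making arm, rose from 130 and 126 CPM in the WT libraries to 338 and 354 CPM in the KO libraries (1.43 ± 0.06, adjusted p = 1.5e-09) and 273 and 284 CPM in the D395A libraries (1.12 ± 0.06, adjusted p = 1e-08). The transketolase-like genes Tktl1 and Tktl2 fell by 3.52 ± 0.45 and 3.57 ± 0.21 in KO and by 3.70 ± 0.47 and 2.19 ± 0.19 in D395A, from 4.48 and 8.37 CPM on average in WT, and their summed level is small beside that of Tkt, at 528 and 527 CPM in the WT libraries.

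Of 27 genes for pyruvate entry into mitochondria and the TCA cycle, 7 rose and 11 fell in KO, and 8 rose and 12 fell in D395A, with a median of -0.08 in both, against 33.6% of all genes that rose and 32.6% that fell in KO, and 36.3% and 34.0% in D395A. The summed level of these genes was 3295 to 3385 CPM in the WT libraries, 3282 to 3406 CPM in the KO libraries and 3117 to 3210 CPM in the D395A libraries. Fh1, fumarase, fell from 115 and 120 CPM to 46.0 and 43.3 CPM in the KO libraries (-1.39 ± 0.06, adjusted p = 1.6e-09) and 78.6 and 75.9 CPM in the D395A libraries. Idh2, the mitochondrial NADP-dependent isocitrate dehydrogenase, rose from 106 and 107 CPM to 225 and 224 CPM in the KO libraries (1.07 ± 0.06, adjusted p = 9.6e-09). Mpc1, a subunit of the mitochondrial pyruvate carrier, fell from 11.7 and 11.5 CPM to 3.28 and 3.80 CPM in the D395A libraries (-1.70 ± 0.13, adjusted p = 1.2e-07), while its partner Mpc2 stood at 9.05 and 7.55 CPM in the WT libraries and 12.0 and 10.5 CPM in the D395A libraries.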
